A study of Mus musculus with 34 samples.

Results

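The potassium channel subunit genes described here are those whose symbol starts with Kcn followed by a further letter, leaving out the inward rectifiers (Kcnj). The rule found 56 such genes among the 11531 genes of the hippocampal tables, of 79 protein-coding genes of that name in RefSeq. They comprised 13 pore subunits of the voltage-gated Kcna, Kcnb, Kcnc and Kcnd families, 9 silent modifiers (Kcnf, Kcng, Kcns, Kcnv), 4 KCNQ channels, 5 channels of the EAG, ERG and ELK group (Kcnh), 6 channels opened by calcium or sodium (Kcnma1, Kcnn, Kcnt), 8 tandem-pore leak channels (Kcnk) and 11 auxiliary subunits (Kcnab, Kcnip, Kcne, Kcnmb). The table of cultured hippocampal cells listed 50 genes of the rule and that of mouse embryonic stem cells 14.

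Ribosome-protected mRNA fragments (RPF, or footprints, a count of ribosomes on each mRNA) and RNA were sequenced from hippocampi of C57BL/6N mice. Mice of 4 groups underwent contextual fear conditioning, in which a chamber explored for 148 s is followed by a foot shock of 2 s, and were taken 5, 10 or 30 min or 4 h later. Control mice had no stimulus. Each of the 5 groups had 3 replicates for each kind of library, 15 footprint and 15 RNA libraries in all. Hippocampal primary culture of the same strain had 1 library of each kind, as did the stem cell line A3-1, which had received siRNA directed at luciferase, so neither has replicates. The labels give neither the age of the mice nor whether replicates were separate or pooled animals, so each p-value below reflects how these samples scatter, and that scatter may be technical.

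Potassium channels let potassium leave the neuron and thereby set the resting potential, end the action potential and fix the interval before the next one. Voltage-gated pore subunits assemble as tetramers and take up silent and auxiliary subunits that change their gating or their transport to the membrane. In the hippocampus, Kcna channels act at axons and terminals, Kcnd channels in dendrites, Kcnc channels in fast-spiking cells, KCNQ channels in the muscarine-sensitive M-current and Kcnn channels in the after-hyperpolarisation.

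The deposited values, called signal below, are reads per gene divided by 1 number per library and carry no gene length, so a value says how 1 gene differs among libraries and not how abundant it is beside another gene. Tissue footprint libraries held 14240563 to 30480009 reads on listed genes and tissue RNA libraries 16814796 to 25515210. The labelled tissue and cells were checked against marker genes. All 6 markers of pyramidal and granule neurons were listed in the tissue, with a summed footprint signal of 413 to 460.5 in the 15 libraries, and all 7 interneuron markers, with 110 to 130. The culture listed all 6 of the former (summed footprint signal 149) and 6 of the 7 interneuron markers (102), Pvalb being the one not listed. It also listed 6 of 7 astrocyte markers, with a sum of 229.9 against 326 to 511 in the tissue, while microglial markers summed to 0.28 (1 of 8 listed) and oligodendrocyte markers to 1.53 (3 of 7 listed). The stem cells carried the pluripotency genes Pou5f1 and Nanog at footprint signals of 47.9 and 77.3, and neither was listed in the tissue or the culture. In bulk tissue, fewer cells of a type and less RNA per cell cannot be told apart.

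The first comparison asked how densely each channel mRNA was occupied by ribosomes in unstimulated hippocampus. Translational efficiency (TE) was taken as log2((footprint signal + 1)/(RNA signal + 1)) minus the value of the median gene of the same sample, so that 0 is the median gene. The median was taken over the 7103 genes tested in the tissue. In the culture and stem cells it was taken over all 10379 and 11029 genes listed, without a signal minimum. Each footprint library was set against the RNA library of its group and replicate number, which the labels do not state to come from the same tissue. Of the 56 members, 38 had a mean signal of at least 1 in both kinds of library and entered the test. The median member lay at a relative TE of -0.24 (quartiles -0.57 and 0.17), against quartiles of -0.45 and 0.44 for the 7103 genes tested, and 13 of 38 members (34.2%) lay above the median gene. By limma with Benjamini-Hochberg adjustment, control footprints differed from control RNA in 31 of 38 members, or 81.6%, where 76.6% of all genes tested did. Of these, 11 members (28.9%) were higher and 20 (52.6%) lower, against 41.8% and 34.8% of all genes. Because a large share of all genes passed, passing by itself says little about a member, and the size and side are given below. The test centres each library separately, which places the median of all genes at 0.06 on its scale.

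Most pore subunits of the voltage-gated families lay low. Kcna2, a Shaker-type axonal channel, had a relative TE of -1.39, -1.47 and -1.29 in control replicates 1 to 3. Its RNA signal was 19.4, 17.2 and 17.1 and its footprint signal 6.88, 5.73 and 6.65, a contrast of -1.32 (SE 0.08, limma adjusted p = 3.11e-13). In all 15 pairs of tissue libraries its relative TE stayed between -1.47 and -1.15. Kcnc2, of the fast-spiking Kcnc family, had RNA signals of 12.5, 11.4 and 11.9 and footprint signals of 4.18, 4.39 and 4.51, which gave -1.24 (SE 0.06, limma adjusted p = 5.69e-16). In neither gene did RNA and footprint values overlap. The dendritic A-type channel genes Kcnd3 and Kcnd2 were lower by smaller amounts (relative TE -0.58 ± 0.07 and -0.32 ± 0.12, SD, n = 3), as were Kcna6 (-0.38 ± 0.03), Kcna4 (-0.37 ± 0.21), Kcnb2 (-0.33 ± 0.15), Kcna1 (-0.27 ± 0.08) and Kcnc4 (-0.22 ± 0.14).

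On the other side of the median gene stood another gene of the Kcnc family. Kcnc1, which serves fast-spiking neurons, had footprints at 7.15, 7.82 and 6.88 over RNA at 3.66, 3.66 and 3.98 (contrast 0.83, SE 0.10, limma adjusted p = 5.09e-08). Over the 15 library pairs the relative TE of Kcnc1 lay between 0.59 and 1.08 and that of Kcnc2 between -1.40 and -1.14, without overlap. Kcna3, a channel best known from lymphocytes and present at presynaptic terminals, had too little RNA for the test. Its relative TE was 0.66 ± 0.07, with footprints at 1.61, 1.59 and 1.50 and RNA at 0.58, 0.58 and 0.61. Kcna2 and Kcna3, which RefSeq places next to each other in the genome, thus lay far apart in these ratios.

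Among the silent modifiers, which form no channel alone and join Kcnb subunits, Kcng2 was higher (relative TE 0.42 ± 0.34) and Kcns2 lower (-0.69 ± 0.04). Kcnv1 (-0.18 ± 0.04) and Kcnf1 (-0.07 ± 0.07) did not pass the test, though Kcnv1 passed once the replicate number was a block in the fit (limma adjusted p = 0.0114). Kcng1 had the highest ratio of all 56 members but fell below the RNA minimum. Its footprint signal was 2.54, 2.69 and 2.47 and its RNA signal 0.383, 0.233 and 0.416 in control replicates 1 to 3, 7.46 times as much footprint as RNA signal in the means. It rested on 503 to 1248 footprint reads and 75 to 152 RNA reads per tissue library. When every listed gene was fitted, 11 of the 18 untested members passed, Kcng1 among them, as did 75.2% of all 11531 genes.

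In the KCNQ group, Kcnq3 (relative TE -0.80 ± 0.11) and Kcnq5 (-0.61 ± 0.06) were lower. Of the EAG, ERG and ELK genes, Kcnh2, which encodes the ERG channel, was higher (0.46 ± 0.12), as was Kcnh7 of the same subfamily (0.19 ± 0.14). Kcnh3 (-0.62 ± 0.15) and Kcnh1 (-0.52 ± 0.10) were lower. Kcnh5 stood at 0.04 ± 0.09 and did not pass.

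The ion-activated channels were split as well. Kcnn2, the calcium-activated SK channel of pyramidal spines, was higher (0.39 ± 0.18), and so were Kcnma1, the large-conductance BK channel (0.25 ± 0.21), and the sodium-activated Kcnt1 (0.30 ± 0.09). Kcnt2, the other sodium-activated channel, had RNA at 7.88, 7.20 and 7.85 and footprints at 3.82, 2.74 and 3.31 (contrast -0.99, SE 0.09, limma adjusted p = 3.96e-10), and Kcnn3 was lower too (-0.36 ± 0.07). Kcnn1, below the footprint minimum, stood at -0.79 ± 0.02, so Kcnn2 and its 2 relatives lay on opposite sides of the median gene.

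Of the leak channels only Kcnk1 and Kcnk2 could be tested, at 0.20 ± 0.02 (higher) and -0.07 ± 0.09 (not passing). Kcnk9, Kcnk12 and Kcnk4, all below the RNA minimum, stood at 0.86 ± 0.11, 0.82 ± 0.04 and 0.46 ± 0.05, and Kcnk10 at -0.58 ± 0.11. Kcnk3 stood at -0.23 ± 0.09 and Kcnk13 at -0.11 ± 0.04. Among auxiliary subunits, the cytosolic beta subunits Kcnab2 (0.36 ± 0.10) and Kcnab1 (0.09 ± 0.05) were higher. Kcnmb4, the neuronal beta subunit of BK channels, was lower (-0.77 ± 0.08) while its pore partner Kcnma1 was higher. The Kcnd partners Kcnip2 (-0.38 ± 0.10) and Kcnip3 (-0.34 ± 0.06) were lower, and Kcnip1 (-0.15 ± 0.06) and Kcnip4 (-0.11 ± 0.02) did not pass.

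Of the 38 members, 10 lay above the median gene in all 15 library pairs, 21 below it in all, and 7 on both sides. Of the 31 calls, 10 were lost when some 1 control library was left out. The contrast of Kcnip2 became -0.21 and -0.33 without footprint replicate 1 or 3, and -0.27 and -0.25 without RNA replicate 2 or 3. Kcnc4 fell short at -0.14 without footprint replicate 1, -0.14 without footprint replicate 3 and -0.11 without RNA replicate 3. Kcnd2 fell short at -0.18 without footprint replicate 2 or RNA replicate 1, Kcnip3 at -0.23 and -0.21 without footprint replicate 2 or RNA replicate 3, and Kcnab1 at 0.15 without footprint replicate 3 or RNA replicate 1. Single libraries also ended the calls of Kcnh7 (0.17 without RNA replicate 2), Kcna4 (-0.24 without RNA replicate 2), Kcna1 (-0.16 without footprint replicate 1), Kcnk1 (0.20 without footprint replicate 1) and Kcng2 (0.30 without footprint replicate 2).

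**Figure D1:**
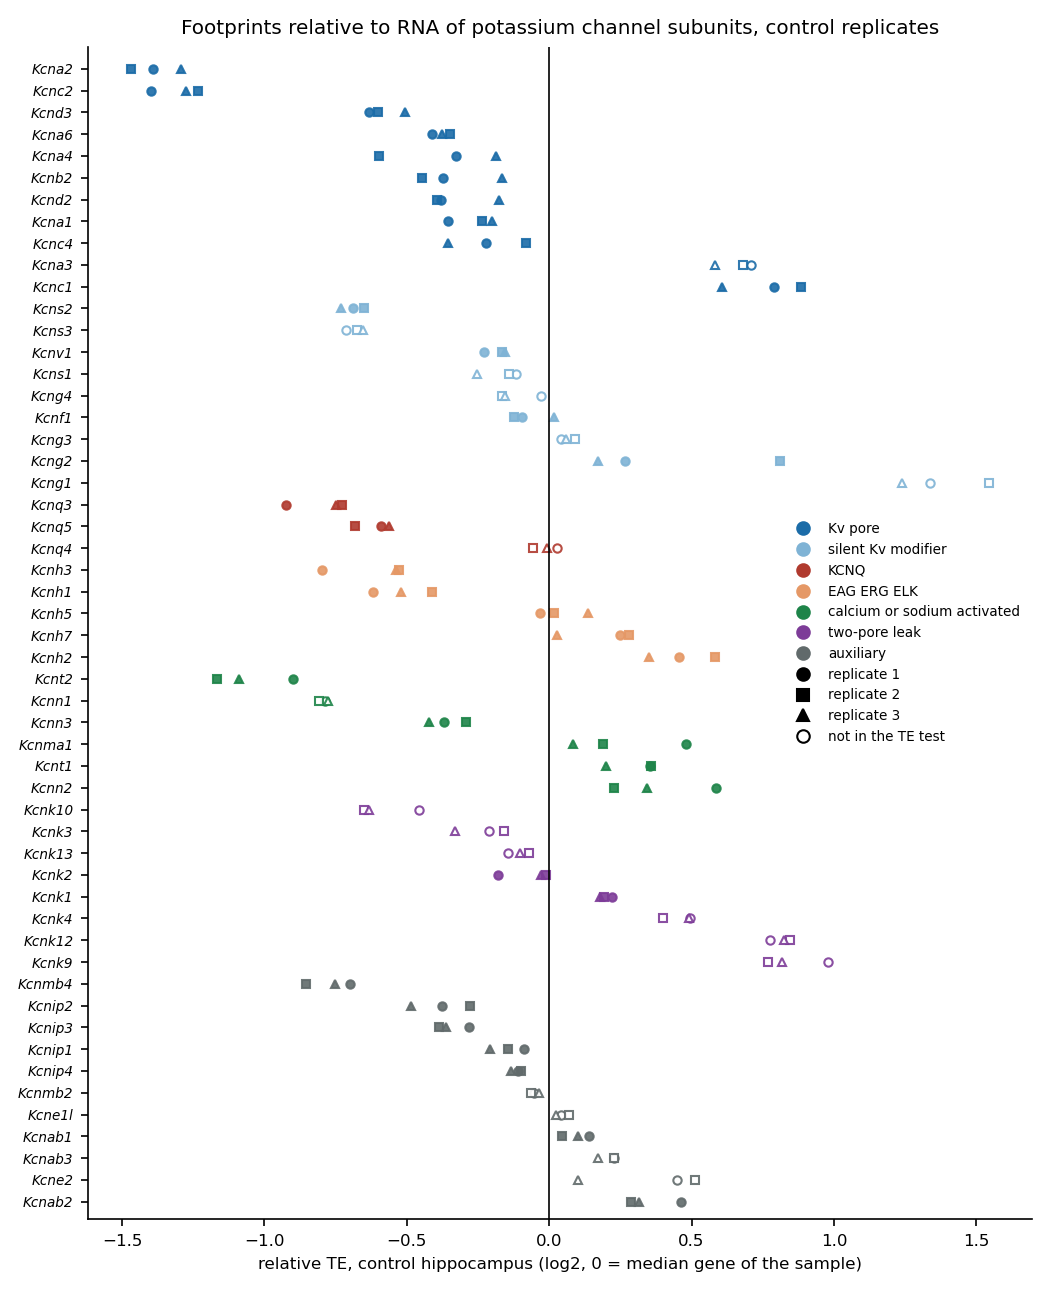
Relative TE (log2, horizontal axis) of members in control hippocampus, grouped by role (colour). Each row is a gene and each point 1 of 3 replicates, open points mark genes below the signal minimum of the test, and the line at 0 is the median gene; Kcna2 and Kcnc2 sit lowest, and Kcng1 highest.

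The hippocampal culture, which holds neurons outside the tissue, was used to ask whether each gene's ratio was of like size there. Its 50 members had a median relative TE of -0.14, and 17 of them (34.0%) lay above the median gene. With a pseudocount of 0.1 in place of 1 that median moved to -0.31. The lowest was again Kcna2, at -1.67 from 513 footprint and 1026 RNA reads. Kcnn1 (-1.11, 221 and 373 reads) and Kcnc2 (-0.99, 468 and 548 reads) were also low. Among the highest were Kcnd1 (0.63, 263 and 24 reads), Kcnk12 (0.50, 513 and 117 reads) and Kcna3 (0.47, 463 and 108 reads). Kcnd1, a dendritic A-type subunit, and Kcnu1 were listed in the culture and not in the tissue. Kcng1, Kcnab3, Kcne1l, Kcne2, Kcnip4, Kcnk4, Kcnk9 and Kcnk13 were listed in the tissue and not in the culture.

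Across the 37 members tested in the tissue and listed in the culture, relative TE was related between the sources with Pearson's r of 0.72 and Spearman's rho of 0.70, and 31 (83.8%) had the same sign. Over the 6932 genes tested for TE in the tissue and listed in the culture these were 0.87, 0.85 and 82.9%. These are correlations across genes, which are not independent replicates, and each value of a source comes from the same libraries. The widest gap was that of Kcnc1, at 0.76 ± 0.14 in the tissue and -0.76 in the culture (672 footprint and 600 RNA reads). Kcnt2 went the other way, from -1.05 ± 0.14 to 0.08 (1592 and 659 reads). Kcna1, an axonal channel gene, was at -0.27 ± 0.08 in the tissue and -0.91 in the culture (5115 and 4364 reads). With 1 culture library of each kind, these differences have no test. The median gene was taken over unlike sets of genes in tissue and culture, which bears on the signs and gaps. The part of the astrocytes and of the near absence of microglia and oligodendrocytes in the culture was not tested. Nor was that of the interneurons, of whose markers Pvalb was not listed there.

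**Figure D2:**
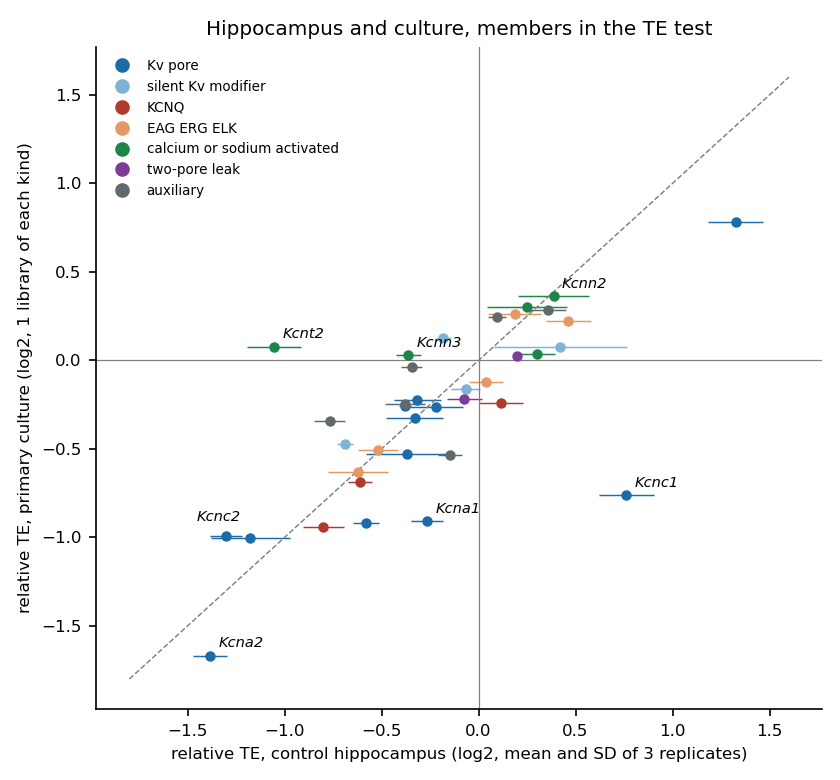
Relative TE (log2) of the 37 members tested in the tissue and listed in the culture, with the mean and SD of 3 control replicates on the horizontal axis and the single culture value on the vertical axis. The dashed line marks equal values and colour marks the role; Kcnc1 lies far below that line and Kcnt2 far above it.

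In the stem cells, 2 of 14 members lay above the median gene, Kcnk5 (0.04, from 6642 footprint and 1942 RNA reads) and Kcnh6 (0.04, 180 and 33 reads). Neither was listed in the tissue, nor was the leak channel gene Kcnk6 (-0.54, 109 and 125 reads). Other low values were those of Kcnn1 (-0.50, 74 and 101 reads) and Kcng3 (-0.37, 45 and 61 reads). The median was -0.31, and -0.75 with a pseudocount of 0.1, so these values depend on the constant added.

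The main comparison of the study, each time after conditioning against control, asked whether footprints on these mRNAs changed with learning. No member passed in any of the 4 footprint comparisons by limma with Benjamini-Hochberg adjustment (0 of 44 tested, where 0.0% of all 7898 genes passed), nor in the F-test of any time. In that F-test 1 of 44, Kcng1, stood at an unadjusted p under 0.05 (0.393% of all genes). At an unadjusted p under 0.05 stood 0 members at 5 min (0.646% of all genes), 0 at 10 min (0.329%), 0 at 30 min (0.253%) and 2 at 4 h, Kcng1 and Kcnc2 (0.532%). A fit on the recovered reads with voom also gave 0 members past the threshold at each time, with 1 at an unadjusted p under 0.05, at 4 h. With the replicate number as a block 0 again passed after adjustment, and 2, 2, 3 and 6 members stood at an unadjusted p under 0.05 at the 4 times in order, where 6.89%, 3.28%, 2.76% and 6.04% of all genes did. Of the 176 footprint changes measured, 174 lay within 0.2 of 0 on the log2(signal + 1) scale. All 4 times were compared with the same 3 control libraries, so a high or low control shifts them together. Unless the block is named, SEs and p-values of the time comparisons come from fits without it. Differences between replicate numbers stay in the spread of those fits.

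At 4 h the members leaned upwards without any single gene passing. The direction was higher in 36 of 44, with a median log2 change of 0.05, where all genes had a median of 0.00 and 51.2% of them were higher. With each library centred on its median gene it was again 36, and with voom 34. Each tested member of the KCNQ group (3 of 3), the ion-activated channels (5 of 5) and the leak channels (4 of 4) had a positive value, as did 12 of 13 voltage-gated pore subunits, 4 of 5 Kcnh genes, 3 of 5 silent modifiers and 5 of 9 auxiliary subunits. At 5, 10 and 30 min the direction was higher in 27, 29 and 32 of 44, with medians of 0.01, 0.02 and 0.03, where 47.3%, 50.3% and 60.8% of all genes were higher. With voom 24, 26 and 26 members were higher at these times. The inward rectifiers were higher in 7 of 9 at 4 h. Summed footprints of the 6 pyramidal and granule neuron markers were 412.6 to 422.5 in the controls and 434.7 to 460.5 at 4 h. These ranges did not overlap. RNA sums of the same markers did (121.5 to 141.9 and 126.7 to 145.8). So did interneuron footprint sums (110.4 to 124.2 and 112.7 to 129.9). The part of cell make-up in the upward lean of the members at 4 h was not tested.

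The smallest unadjusted p at 4 h belonged to Kcng1, the silent subunit with the high ratio. Its footprint signal was 2.54, 2.69 and 2.47 in the controls, 2.42, 2.44 and 2.03 at 5 min, 2.50, 2.35 and 2.42 at 10 min, 2.72, 2.64 and 2.41 at 30 min and 2.09, 2.28 and 2.18 at 4 h. The groups at 5 min and 4 h lay below all 3 controls, and that at 30 min did not. The log2 change was -0.12 (SE 0.06) at 5 min and -0.16 (SE 0.06, limma adjusted p = 1) at 4 h. Its RNA, at 0.383, 0.233 and 0.416 in the controls and 0.274, 0.267 and 0.402 at 4 h, overlapped between the groups and was too low for the test.

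Kcnc2 footprints were 4.18, 4.39 and 4.51 in the controls and 4.71, 4.96 and 4.81 at 4 h, which gave 0.12 on the log2 scale (SE 0.06, limma adjusted p = 1). They were 4.76, 4.52 and 4.60 at 5 min and 4.63, 4.58 and 4.52 at 10 min, above every control, and at 30 min overlapped with the controls (4.48, 4.88 and 4.24). The M-current gene Kcnq3 had controls of 3.69, 3.69 and 3.71 and was higher than each at 5 min (4.25, 3.85 and 4.09), 10 min (4.17, 3.77 and 3.92) and 4 h (3.79, 4.07 and 4.28), but not in all replicates at 30 min (4.12, 4.12 and 3.61). Its log2 changes were 0.11, 0.08, 0.07 and 0.10 at the 4 times in order, each with an SE of 0.06. The SD of its controls, 0.0122, was far below that of the other groups (0.198 to 0.295), and the shared spread of the model is wider than that of the controls alone.

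Groups that did not overlap were counted beside these tests, and the genes were named after their values were seen. At 5 min 3 of 44 members lay above all controls (Kcnc2, Kcnq3 and Kcnk12), where 1.77% of all genes did, and 1 below (Kcng1), where 3.06% did. At 10 min 2 lay above (Kcnc2 and Kcnq3; 1.29% of all genes) and 0 below (1.24%). At 30 min 0 lay above (0.823%) and 0 below (0.405%), and at 4 h 3 above (Kcnc2, Kcnq3 and Kcnn2; 1.72%) and 1 below (Kcng1; 1.09%).

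The other members with the smallest unadjusted p-values in each direction, none past the threshold, moved by little. At 5 min these were Kcnmb4 (log2 change 0.11) and Kcnn3 (0.08) on the higher side, and Kcns2 (-0.05) and Kcnip4 (-0.07) on the lower. At 10 min they were Kcnn2 (0.13), Kcnn3 (0.06), Kcng1 (-0.06), Kcnh5 (-0.08) and Kcnc4 (-0.05). At 30 min Kcnn3 (0.09) and Kcnmb4 (0.09) stood on the higher side and Kcnh2 (-0.09), Kcne2 (-0.32) and Kcnd3 (-0.05) on the lower. At 4 h Kcnn2 had 0.15, Kcne2 -0.49 and Kcnip3 -0.05. Kcne2 is taken up with the replicate numbers below.

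**Figure D3:**
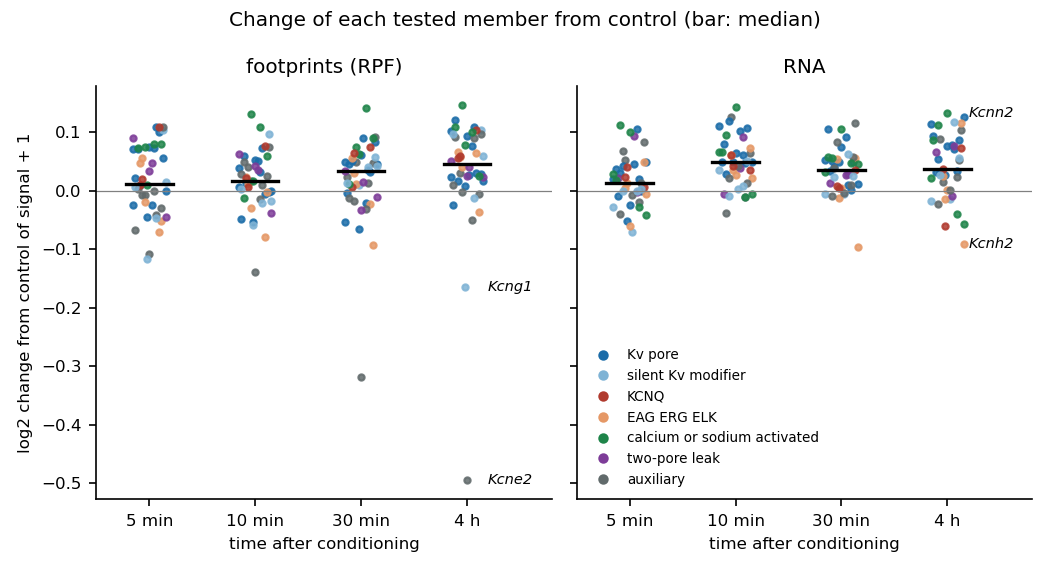
Log2 change from control of signal + 1 (vertical axis) at each time after conditioning, for the 44 members tested in footprints and the 41 tested in RNA. Each point is a gene, coloured by role, and the bar is the median of the members; apart from Kcne2 footprints at 30 min and 4 h, all points lie within 0.2 of 0.

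RNA of the members was compared in the same way. No member passed at any time by limma with Benjamini-Hochberg adjustment (0 of 41 tested, where 0.0% of all 8061 genes passed), nor in the F-test of any time, where 0 of 41 stood at an unadjusted p under 0.05 (0.546% of all genes). For single times that threshold was met by 0 members at 5 min (1.04% of all genes), 2 at 10 min, Kcnn2 and Kcnab2 (1.86%), 0 at 30 min (1.46%) and 1 at 4 h, Kcnn2 (2.59%), and voom gave 0 at either threshold at each time. With the replicate block 0 passed after adjustment, and 2, 6, 4 and 8 members stood at an unadjusted p under 0.05 at the 4 times, where 532, 968, 809 and 1317 of all 8061 genes did. All 164 RNA changes lay within 0.2 of 0, the largest being 0.14. The direction was higher in 25, 35, 35 and 32 of 41 at 5, 10 and 30 min and 4 h, with medians of 0.01, 0.05, 0.03 and 0.04 beside 0.01, 0.03, 0.03 and 0.03 for all genes, of which 4840, 5725, 5773 and 5338 of 8061 were higher. With each library centred on its median gene 23, 30, 26 and 29 members were higher. With voom 11, 16, 14 and 19 were, with medians of -0.03, -0.01, -0.01 and -0.02, and the medians of all genes fell as well, to -0.03, -0.03, -0.02 and -0.03.

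Kcnn2, the SK channel gene, had the smallest p among higher RNAs at all times after conditioning. Its RNA signal was 1.88, 2.02 and 2.25 in the controls, 2.35, 2.23 and 2.22 at 5 min, 2.35, 2.21 and 2.54 at 10 min, 2.13, 2.33 and 2.38 at 30 min and 2.22, 2.32 and 2.48 at 4 h. The third control lay among the later values, so no group stood clear of the controls. Within replicate numbers it was higher than its control in 2 of 3 at 5 min and in 3 of 3 at 10 min, 30 min and 4 h, with limma adjusted p of 0.736, 0.315, 0.450 and 0.180 in the fit with the replicate block. The log2 changes were 0.10, 0.14, 0.11 and 0.13 (SE 0.06 each), with a limma adjusted p of 1 at each time. The same gene's footprints were 3.39, 2.63 and 3.28 in the controls and 3.57, 3.42 and 3.57 at 4 h, clear of the controls, and overlapped with them at the other times.

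Kcnab2, a cytosolic beta subunit of Kcna channels, had RNA signals of 14.5, 14.6 and 13.7 in the controls and 16.4, 15.6 and 14.9 at 10 min. Without overlap, this gave 0.13 on the log2 scale (SE 0.06, limma adjusted p = 1). At 4 h its values of 14.7, 13.8 and 14.7 overlapped with the controls, and its footprints overlapped with them at every time.

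At 5 min 1 of 41 members had RNA above all controls (Kcnt2, where 3.01% of all genes did), and 0 below (1.76%). At 10 min 4 lay above (Kcnab1, Kcnab2, Kcnn1 and Kcnt2; 5.78% of all genes) and 1 below (Kcnip4; 1.29%). At 30 min 2 lay above (Kcnab1 and Kcnab2; 4.44%) and 0 below (0.682%), and at 4 h 3 above (Kcna1 and Kcnt2 among them; 5.46%) and 0 below (1.43%). Other members with the smallest unadjusted p-values, none past the threshold, were Kcnt2 (log2 change 0.11), Kcna6 (-0.05), Kcnf1 (-0.07) and Kcnip4 (-0.04) at 5 min, and Kcnn1 (0.07), Kcnip4 (-0.04), Kcns3 (-0.01) and Kcnt1 (-0.01) at 10 min. At 30 min they were Kcnab1 (0.12), Kcnab2 (0.08), Kcnh2 (-0.10), Kcnh3 (-0.01) and Kcnip4 (-0.01), and at 4 h Kcnt2 (0.11), Kcnab1 (0.10), Kcnh2 (-0.09) and Kcnn3 (-0.06).

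**Figure D4:**
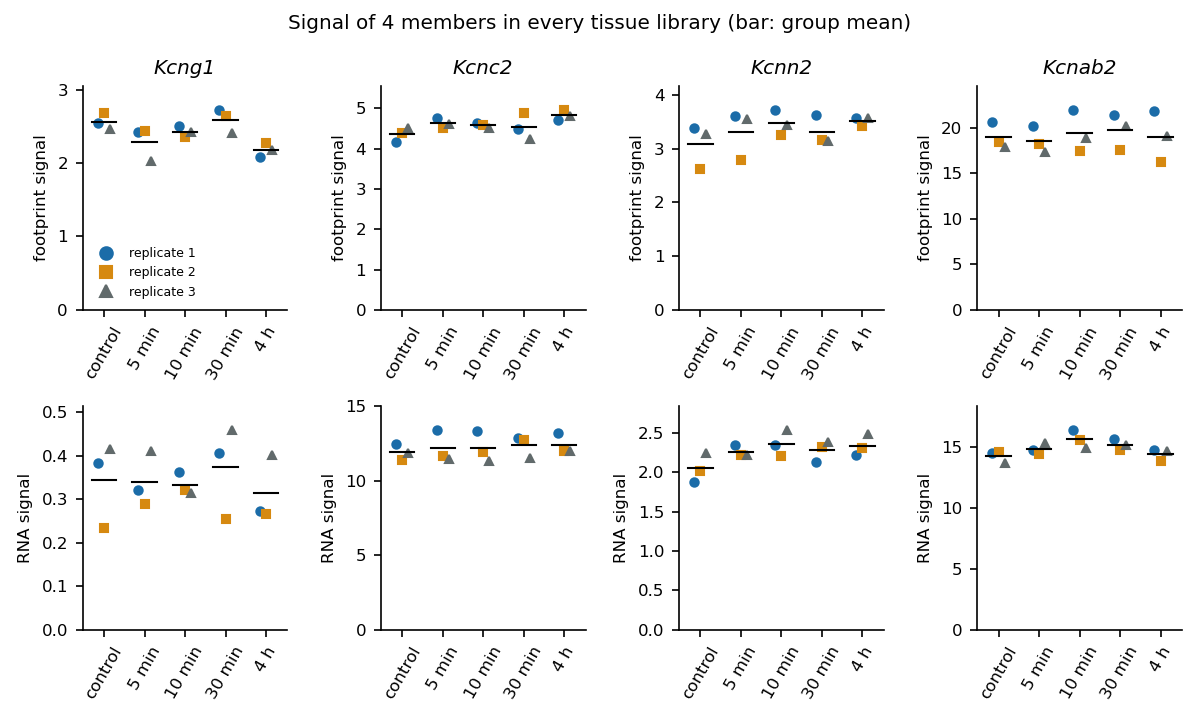
Footprint signal (upper row) and RNA signal (lower row) of Kcng1, Kcnc2, Kcnn2 and Kcnab2 in all 30 tissue libraries, by group (horizontal axis). Points are replicates, bars group means, and each vertical axis starts at 0; Kcng1 footprints at 4 h lie below all 3 controls, and Kcnc2 footprints at 4 h above them.

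The change in footprints was then compared with the change in RNA of the same gene in 1 model of all 30 libraries, with a term for the time effect that differs by library kind. No member passed at any time by limma with Benjamini-Hochberg adjustment (0 of 38 tested, where 0.0% of all 7103 genes passed). At an unadjusted p under 0.05 stood 0 members at 5, 10 and 30 min and 4 h, beside 0.704%, 0.817%, 0.225% and 0.619% of all genes. With the replicate block these were 0, 1, 1 and 0 members, beside 5.59%, 5.7%, 2.42% and 6.35% of all genes. The members' changes ran from -0.12 to 0.13 at 5 min, -0.15 to 0.07 at 10 min, -0.16 to 0.10 at 30 min and -0.12 to 0.15 at 4 h. Kcnmb4, the BK beta subunit, was named on the higher side at each time (0.12, 0.03, 0.10 and 0.10), and Kcnn3 at 5 min, 10 min and 4 h (0.12, 0.06 and 0.08). Others on the higher side were Kcna6 (0.11) at 5 min, Kcnip4 (0.07) at 10 min, Kcnt2 (0.09) and Kcnh3 (0.04) at 30 min and Kcnt1 (0.15) at 4 h. On the lower side Kcnab1 had -0.09, -0.07 and -0.11 at 5 min, 30 min and 4 h and Kcnh5 -0.12, -0.15 and -0.08 at 5, 10 and 30 min. The rest were Kcnab2 (-0.08) at 5 min, Kcnc4 (-0.13) and Kcns2 (-0.07) at 10 min, Kcnd3 (-0.16) at 30 min, and Kcns2 (-0.07) and Kcna4 (-0.12) at 4 h.

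Genes whose products anchor, modify or work beside these channels were taken as a list of 28, among them the Kcnd partner Dpp6, the axonal Cntnap2 and Lgi1, the calmodulin genes and the Hcn channels. Of the 25 listed in the tissue, 22 were tested in footprints and 21 in RNA, and 0 passed at any time. At 4 h 18 of 22 were higher in footprints, where 51.2% of all genes were, with a median of 0.04 beside 0.05 for the channel subunits. In control tissue 16 of 21 passed for TE, 8 higher and 8 lower. Of all genes tested 76.6% passed for TE, 41.8% higher and 34.8% lower. Of the inward rectifiers, 9 were tested and 0 passed at any time, and 5 of 9 passed for TE, 4 higher and 1 lower.

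Much larger differences went with the replicate number that the 5 groups share in their labels. By a limma F-test with Benjamini-Hochberg adjustment, 35 of 44 members (79.5%) differed between the numbers in footprints, where 73.1% of all genes did, and 32 of 41 (78.0%) in RNA, where 65.5% did. In footprints the highest number was 1 for 21 of the 35 members called, 2 for 10 and 3 for 4. Over all genes called in footprints the shares were 50.7%, 21.9% and 27.4% for numbers 1 to 3. In RNA the highest was number 1 for 25 members and 3 for 7, where the shares over all genes called were 64.7%, 8.88% and 26.4%. The footprints of some members were highest in number 2 while their RNA was not. Kcng2 had mean footprint signals of 1.93, 2.97 and 2.03 in numbers 1 to 3 over the 5 groups and RNA signals of 1.22, 1.24 and 1.35, and Kcnc1 7.70, 8.64 and 6.75 beside 3.84, 3.83 and 3.83. Kcnt2 was high in number 1 (4.12, 3.13 and 3.40). Markers of other cells moved with the number too. Summed astrocyte footprints were 466 to 511 in number 1, 326 to 427 in number 2 and 373 to 438 in number 3. Summed microglial footprints were 57.9 to 64.0, 42.5 to 54.2 and 51.1 to 56.3, so number 1 lay above the others for both sums. In the controls Gfap and Tmem119 were highest in number 2, P2ry12 and C1qb in number 3, and the other markers of these lists in number 1. Endothelial sums were also highest in number 1 (at least 5.594, and at most 5.155 in the others). Interneuron sums were lower in number 1 (111.8 to 117.6) than in number 3 (119.8 to 129.9). Oligodendrocyte sums overlapped. All 7 astrocyte and all 8 microglial markers were listed, and the part of other cells in the members' values was not tested. The labels do not say what the number stands for.

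Kcne2, a small subunit known from the choroid plexus and other secretory epithelia, varied most. Its footprint signal was 1.37 to 2.32 in the 5 libraries of number 1, 0.827 to 2.29 in number 2 and 0.0355 to 0.585 in number 3. The ranges of numbers 1 and 3 did not overlap. All 9 choroid plexus markers were listed, none of them at 0, and their summed footprint signal was 1315 to 2092 in number 1, 923 to 1901 in number 2 and 68.4 to 495 in number 3. Ttr, the transthyretin gene that defines this tissue, ran at 926 to 1535, 724 to 1547 and 22.4 to 346. Per 1000 units of that sum, Kcne2 footprints were between 0.519 and 1.21 in all 15 libraries. They were 0.927, 0.897 and 0.519 in numbers 1 to 3 at 4 h, below every library of the other groups (controls 1.11, 1.205 and 0.998). In RNA this ratio ran from 0.787 to 2.13. It was lower at 4 h than in control within each number, but overlapped with the other groups. In number 3 at 4 h the marker sum held more Enpp2 (42.9 in footprints, 18.5 in RNA) than Ttr (22.4 and 8.03). In control replicate 3 it held less Enpp2 (67.1 and 26.2) than Ttr (107.6 and 41.3). The footprint and RNA ratios of number 3 thus depend on which markers are summed. RNA of Kcne2 lay at 0.831 to 1.40, 0.495 to 1.25 and 0.0226 to 0.373. Within each replicate number, 4 h lay below control (footprints 2.32 to 1.44, 2.29 to 0.827 and 0.180 to 0.0355), and so did the marker sum (2092 to 1551, 1901 to 923 and 181 to 68.4). The log2 change of footprints at 4 h was -0.49 (SE 0.44, limma adjusted p = 1), ranging from -0.99 without control replicate 3 to -0.15 without 4 h replicate 3. The lowest library, number 3 at 4 h, held 10 footprint reads and 6 RNA reads of Kcne2. The part of choroid plexus tissue in the Kcne2 values was not tested.

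**Figure D5:**
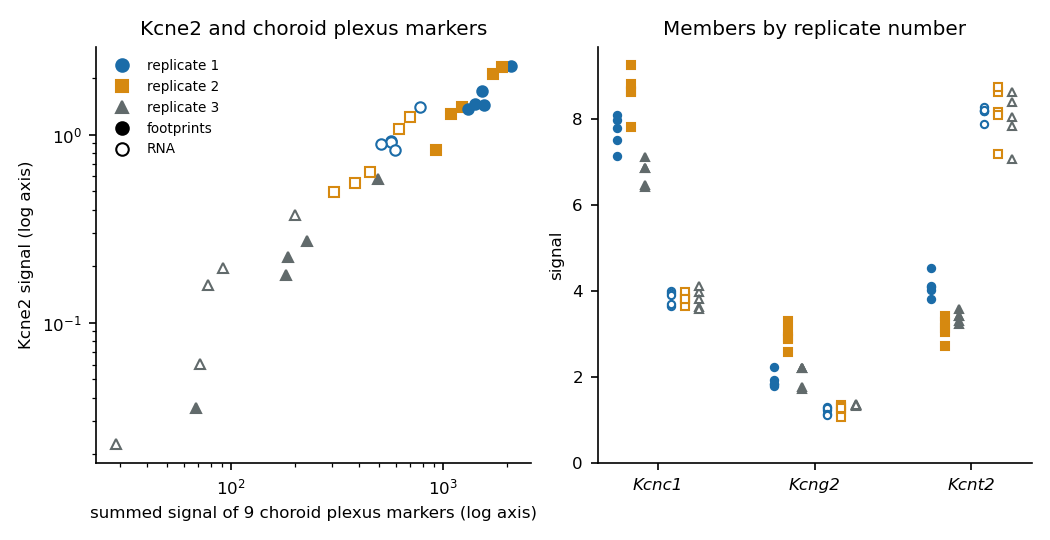
Left, Kcne2 signal against the summed signal of 9 choroid plexus markers in all 30 tissue libraries (both axes logarithmic), with filled points for footprints, open points for RNA and colour and shape for the replicate number. Right, signal of Kcnc1, Kcng2 and Kcnt2 in the same libraries by replicate number; number 3 is lowest for Kcne2, and the mean of number 2 is highest for Kcng2 and Kcnc1 in footprints and not in RNA.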

How the data were processed

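Footprint and RNA libraries of mouse hippocampus (5 groups, 3 replicates each), a hippocampal culture and a stem cell line were compared, grouped by the labels. Reads were aligned with Bowtie 1.1.1 to mm9 after CASAVA 1.8.2, per the submitters' processing notes. The signal values deposited by the authors are whole reads (within 0.001 read) divided by 1 number per library. Not given in the sources used here: the meaning of that number, the counting program, whether it used strand and what it did with reads matching several genes. Near-identical members may therefore share reads. The deposited tables also hold group means and log2 ratios of those means by the authors, which were not used for any test. The number of value columns that belong to no sample was 0.

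Members and lists were chosen with earlier results of these data known. Signal was tested as log2(signal + 1), which understates changes of low genes, with limma 3.58.1 in R 4.3.3 (linear model, trended empirical Bayes, two-sided) for genes with a mean signal of at least 1. All 5 groups shared 1 model of 15 libraries, or 30 for TE. P-values were adjusted by Benjamini-Hochberg over all genes tested, with a threshold of 0.05. Baseline TE compared control footprints with control RNA after each library was centred on its median gene. The procedure was run on simulated reads that held no differences between replicate numbers, so how it behaves with such differences was not tested. Because the files hold signal in place of counts, the planned count test was not run, and voom was fitted on the recovered reads instead. Levels per coding length and protein stretches, also planned, are not given, since no protein table was used here.

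Named are members past the threshold, otherwise the 3 with the smallest unadjusted p in each direction, and the highest and lowest 4 of each baseline list. Some members are counted but not reported by name here. The replicate numbers were checked for pairing from deviations about the group means. Same-numbered libraries correlated at 0.402 to 0.912 in the 12 footprint pairs and at 0.268 to 0.840 in the 12 RNA pairs, so the numbers pair the samples. The tests above have no term for the number, and a fit with it as a block was run beside them. For genes that differ by number, leaving the term out tends to widen the SE and raise the p-value. At 4 h 0.532% of all genes in footprints and 2.59% in RNA stood at an unadjusted limma p under 0.05. With the block 6.04% and 16.3% did. Pairs with different numbers ran from -0.755 to 0.130 and from -0.745 to 0.099. Deviations of the 3 replicates of a group sum to 0, which by itself pushes these values below 0, so they add no evidence of pairing. Alternatives were another pseudocount, no filter, centring, voom, a replicate block and leaving out each library.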

Additional observations from a re-analysis of the deposited data

Results flagged for a closer look

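Some members lay on opposite sides of the median gene in control hippocampus and in another source. Kcnc1 had a relative TE of -0.76 in the culture and 0.76 ± 0.14 in the tissue (SD, n = 3). Kcnn3 stood at 0.029 in the culture, from 815 footprint and 349 RNA reads, and at -0.36 ± 0.07 in the tissue. Kcnt2 stood at 0.077 in the culture and at -1.05 ± 0.14 in the tissue. Kcnh2 had -0.21 (256 and 107 reads) in the stem cells and 0.46 ± 0.12 in the tissue, and Kcnk1 had -0.24 (905 and 346 reads) and 0.20 ± 0.02. With 1 library of each kind in culture and stem cells, these differences were not tested. The median gene is that of the genes tested in the tissue, and that of all genes listed in the other sources. The side on which a value near 0 lies thus depends on the set of genes used.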

How the results depend on the processing

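The counts of members past the threshold in the 12 time comparisons stayed at 0 under every alternative run. The planned count test with edgeR was not run, because the files hold signal. Voom, voom with the replicate block, and the block without a filter were chosen after seeing the data. For baseline TE, 31 of 38 members passed, 31 with a pseudocount of 0.1, 42 of 56 without the filter and 27 to 29 with 1 library left out. With the replicate block 33 of 38 passed (86.6% of all genes), Kcnv1 (adjusted p = 0.0114) being among those added, and at an adjusted p under 0.05 the block changed no count in the time comparisons. The smallest block adjusted p among members was 0.668, 0.998, 1 and 0.619 in footprints and 0.736, 0.315, 0.422 and 0.180 in RNA at 5, 10 and 30 min and 4 h. With the block and no filter the smallest limma adjusted p was 0.388 in footprints and 0.0649 in RNA, both at 4 h.

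With a pseudocount of 0.1 the median relative TE of members moved from -0.14 to -0.31 in the culture and from -0.31 to -0.75 in the stem cells, and the footprint change of Kcne2 at 4 h from -0.49 to -1.02 (-1.55 with voom). These values thus depend on the constant added, and log2(signal + 1) understates changes of low genes. The members differing by replicate number were 35 in footprints (33 with voom to 39 without the filter) and 32 in RNA (25 with voom to 38 without the filter).

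Changes near 0 turned sign when 1 library was left out. In footprints Kcnd3 ran from -0.10 to 0.0010 at 30 min and Kcnip3 from -0.12 to 0.012 at 4 h. In RNA at 5 min Kcnf1 ran from -0.18 to 0.032, Kcnip4 from -0.066 to 0.0067 and Kcna6 from -0.13 to 0.0055. In RNA at 10 min Kcns3 ran from -0.043 to 0.051 and Kcnt1 from -0.050 to 0.050, and at 30 min Kcnip4 from -0.10 to 0.048 and Kcnh3 from -0.038 to 0.029. For TE, Kcnmb4 ran from -0.0094 to 0.075 at 10 min, and at 30 min Kcnt2 from -0.031 to 0.17 and Kcnh3 from -0.022 to 0.078. Baseline TE of Kcnf1 ran from -0.043 to 0.049, of Kcnip1 from -0.18 to 0.0093 and of Kcnk2 from -0.045 to 0.044. None of these genes had passed in the comparison named. Few reads stood behind Kcne2 in replicate number 3 and behind several stem cell values, and members under the signal minimum were not tested.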
